A study of Mus musculus with 2 samples.

Results

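The cells described here are hepatocytes that remained in a preparation of non-parenchymal cells, the liver cells other than hepatocytes. The preparations came from mice given intraperitoneal carbon tetrachloride (CCl4), a solvent that injures hepatocytes and leads to fibrosis, for 8 weeks. The wild-type group carried both functional copies of Mfap2 (Mfap2+/+), and the knockout group lacked them (Mfap2-/-). Both groups received CCl4, and each gave 1 library of droplet single-cell RNA sequencing. No age, sex or strain is given in the labels, nor how many animals were pooled in a library. Mfap2 encodes a glycoprotein of extracellular microfibrils.

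Barcodes were selected on measured values. They were counted as hepatocytes when 7 hepatocyte transcripts (Alb, Ttr, Apoa1, Apoa2, Apoc3, Fgb and Serpina1c) supplied at least 2% of their UMIs, the tags that mark single RNA molecules. They also had at least 200 genes, at most 20% mitochondrial UMIs, at most 20 UMIs of the Kupffer cell genes C1qa, C1qb and C1qc, and at most 5 of the endothelial genes Stab2, Clec4g and Ptprb. Barcodes with any Cd3d, Cd3e or Cd3g UMI (T cells) or over 2 UMIs of Cd79a, Cd79b and Ms4a1 (B cells) were left out. This left 89 of 24655 barcodes: 22 were wild type and 67 were knockout. Because these transcripts chose the barcodes, their levels describe the selection and are not a finding. With 1 library per genotype no comparison of genotypes can be tested. Intervals below are at 95% and cover counting error only, and a difference between the libraries cannot be told apart from a difference between 2 preparations. Limits given with the median of a gene list are medians of its genes' limits and are not an interval of that median.

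Hepatocytes make most plasma proteins, among them albumin, transport apolipoproteins, fibrinogen and protease inhibitors, and they carry out urea synthesis, drug metabolism and bile acid synthesis. Their tasks differ along the liver lobule. Cells around the portal vein favour urea synthesis and glucose output, whereas cells around the central vein carry most of the cytochrome P450 enzymes, including Cyp2e1, the enzyme that activates CCl4. Injured or regenerating hepatocytes can reduce these tasks and express fetal genes such as Afp.

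The promoters of the selecting genes illustrate the hepatocyte programme, and 3 of the 5 for which an entry was matched held the 6 letters GTTAAT or their reverse complement, the half-site of the hepatocyte factors of the HNF1 family, within 250 bases before the start. The share over all 27025 genes in the same table was 7.49%, and 11 of 27 genes (40.7%) on a list of other secreted plasma proteins held it. A match describes letters and does not show binding. The sequences are RefSeq promoters on GRCm38.p6, printed 5′ to 3′ on the gene's strand, with the match in capitals. The start is taken as the end of the printed promoter and can differ from the gene start in GENCODE. They are shown because these genes define the barcodes, and Afp because its level differed most in the downward direction.
Alb, chr5:90460620-90460869, plus strand: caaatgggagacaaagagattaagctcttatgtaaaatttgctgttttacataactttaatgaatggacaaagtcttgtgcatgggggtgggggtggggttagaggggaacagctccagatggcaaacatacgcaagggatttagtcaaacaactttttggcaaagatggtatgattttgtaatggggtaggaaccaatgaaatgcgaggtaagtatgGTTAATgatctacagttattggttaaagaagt
Fgb, chr3:83049864-83050113, minus strand: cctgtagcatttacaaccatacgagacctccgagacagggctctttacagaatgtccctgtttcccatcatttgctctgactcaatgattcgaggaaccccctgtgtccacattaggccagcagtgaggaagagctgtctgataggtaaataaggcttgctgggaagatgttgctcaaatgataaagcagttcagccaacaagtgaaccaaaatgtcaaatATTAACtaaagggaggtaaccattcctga
Serpina1c, chr12:103904951-103905200, minus strand: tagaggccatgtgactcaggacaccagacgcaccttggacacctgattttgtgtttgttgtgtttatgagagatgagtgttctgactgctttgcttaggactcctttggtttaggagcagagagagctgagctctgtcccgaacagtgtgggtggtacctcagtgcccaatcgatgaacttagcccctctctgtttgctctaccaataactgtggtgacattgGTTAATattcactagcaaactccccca
Afp, chr5:90490464-90490713, plus strand: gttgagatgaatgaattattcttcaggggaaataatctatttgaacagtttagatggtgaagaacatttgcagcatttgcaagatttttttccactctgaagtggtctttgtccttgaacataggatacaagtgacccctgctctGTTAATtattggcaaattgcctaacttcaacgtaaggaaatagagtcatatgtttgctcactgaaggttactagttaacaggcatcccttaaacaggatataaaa

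Counted back from the end of the printed promoter, the match began 32 bases away in Alb, 29 in Fgb, 27 in Serpina1c and 105 in Afp. These are not distances to the GENCODE gene start. In Alb the promoter ends at 90460869 and the gene begins at 90460897, and in Afp they lie at 90490713 and 90490737. In Serpina1c and Serpina1e, neighbouring genes on chromosome 12 that encode near-identical alpha-1-antitrypsins, the promoters shared a run of 70 bases around the match. It is shown because Serpina1c is a selecting gene while Serpina1e was among the largest differences between the libraries.
Shared by Serpina1c and Serpina1e: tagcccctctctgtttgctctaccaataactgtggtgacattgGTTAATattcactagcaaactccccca

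Hepatocytes made up 0.193% (0.121 to 0.293) of the 11370 wild-type barcodes within the gene and mitochondrial limits. They made up 0.527% (0.408 to 0.668) of the 12723 knockout barcodes. The knockout share was 2.72 times the wild-type share (1.66 to 4.63). The isolation removes hepatocytes, and how completely it did so in each preparation was not measured here. The excess depended on the selecting share as well: it was 1.44 on the log2 scale at 2%, 0.60 at 1% and 2.34 at 10%. Between 1% and 2%, a further 28 wild-type and 18 knockout barcodes were found. The 3 wild-type barcodes just inside the limit had 2.08%, 2.16% and 2.42% selecting transcripts, and the 3 just outside had 1.94%, 1.81% and 1.75%. In the knockout library the values were 2.04%, 2.04% and 2.04% inside and 1.96%, 1.93% and 1.90% outside, so the limit fell in no gap.

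The hepatocyte barcodes were uneven in depth. Their UMI total ran from 510 to 21833 in the wild-type library (median 4456) and from 569 to 34719 in the knockout library (median 1767). In sum they held 143233 and 315599 UMIs, of which the 5 deepest barcodes supplied 59.1% and 41.1%. A median of 1536.5 wild-type and 962 knockout genes was detected. The median mitochondrial share was 3.60% and 1.36%. The knockout barcodes were thus shallower by median. The other barcodes of the knockout library were deeper than those of the wild type (median 6605.5 against 4934 UMIs). Here and below, other barcodes are those within the gene and mitochondrial limits. The marker limits are UMI counts that do not scale with depth. Barcodes with at least 2% selecting transcripts that they left out had medians of 105610 (2 wild-type) and 34080 (15 knockout) UMIs. The part of these limits in the depth was not tested. Of the cell barcodes, 40 occurred in both libraries, and none of these was a hepatocyte.

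**Figure D1:**
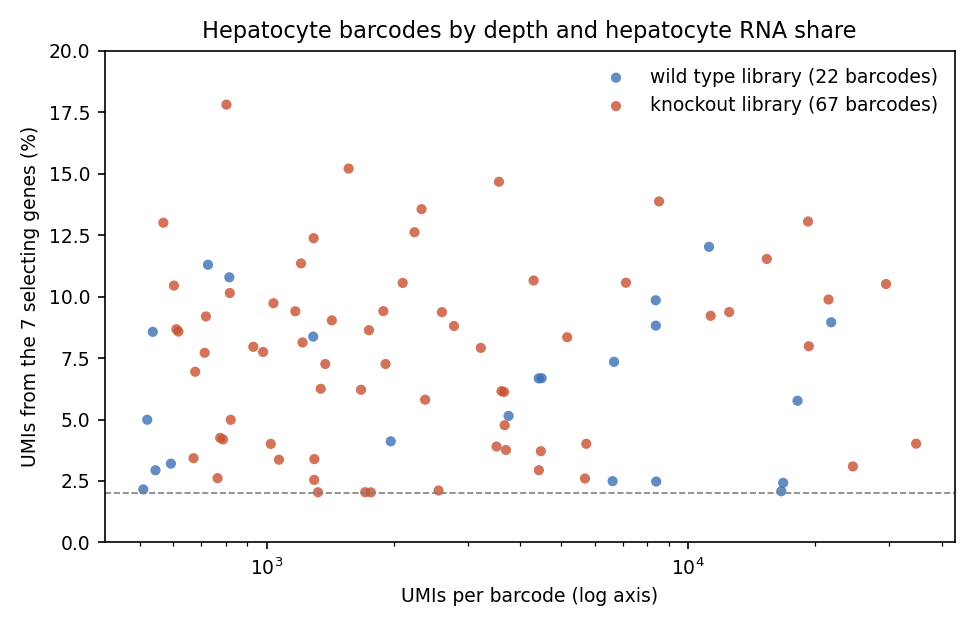
Each point is 1 hepatocyte barcode, with its UMI total on a log axis and the percentage of its UMIs from the 7 selecting genes; the dashed line is the 2% limit. Wild-type barcodes range from 2.08% to 12.02% and knockout barcodes from 2.04% to 17.8%, and both libraries hold barcodes of high and of low depth.

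The label was checked against hepatocyte genes that did not choose the barcodes. Secreted plasma proteins outside the selecting set supplied 6.41% of wild-type and 6.73% of knockout hepatocyte UMIs. In B-cell-like barcodes, which should lack these transcripts, they supplied 0.0258% and 0.0388%. In all other barcodes together they supplied 0.101% and 0.116%. The lowest plasma protein share of any hepatocyte barcode was 0.226%, in a knockout barcode just above the selecting limit. That barcode had 17 Spp1 UMIs and no UMI of Fabp1 or Mup20, and whether it is a hepatocyte was not tested. Hnf4a, the transcription factor that maintains the hepatocyte programme, had a UMI in 6 of 22 wild-type and 14 of 67 knockout barcodes, against 0.3% of B-cell-like barcodes in both libraries. The median depth of the B-cell-like barcodes was 3893 and 5194 UMIs.

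Markers of other cells were read beside the limits of the selection, which themselves keep C1qa, C1qb, C1qc, Stab2, Clec4g, Ptprb, Cd79a, Cd79b, Ms4a1 and the Cd3 genes low, so that low macrophage, endothelial, T-cell and B-cell lists are no check of the label. Of 15 lists, these included, none supplied over 1% of the UMIs of any wild-type barcode. In the knockout library 2 barcodes passed 1% for neutrophil markers, the highest at 14.2%, and another had 17.3% erythroid markers. All 3 were kept. Mesenchymal markers summed to 300.2 CPM (UMIs scaled to a sum of 1e+06 over the barcodes of a library) for wild-type and 124 CPM for knockout hepatocytes. Of the 13 mesenchymal genes, 9 had a UMI in wild-type and 8 in knockout hepatocytes, and Lrat, Col1a2 and Pdgfrb were at 0 in both. T-cell markers summed to 6.98 and 22.2 CPM, with Cd3d, Cd3e and Cd3g at 0 by the selection. Neutrophil markers summed to 894 and 3717 CPM. In the knockout, 74.8% of the S100a8 UMIs came from a single barcode.

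Among genes the selection did not use, lipid carriers and plasma proteins led the hepatocyte RNA. Apoe, the apolipoprotein of remnant particles, was at 19276 CPM (18564 to 20009) in the wild-type and 11134 CPM (10769 to 11509) in the knockout library. Apoe is also a macrophage transcript, at 10375 and 9303 CPM in all other barcodes. Apoc1, a small apolipoprotein, was at 8957 and 11847 CPM, where the other barcodes had 249.9 and 202 CPM. Rbp4, the plasma carrier of retinol, was at 9474 and 8587 CPM.

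Iron proteins and detoxifying enzymes followed. Trf, the plasma iron carrier transferrin, was at 10591 and 7234 CPM, and the ferritin heavy chain gene Fth1 at 8399 and 6090 CPM. Ahsg, a secreted fetuin, had close levels in the libraries, at 7240 and 7142 CPM, a log2 ratio of -0.02 (-0.13 to 0.09). Gstm1, a glutathione transferase, was at 4796 and 4148 CPM. Counts are of 3′ tags and do not depend on transcript length by design.

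The 2 libraries were then compared gene by gene. UMIs were summed over the hepatocytes of each library, and 3061 genes with at least 20 UMIs in all were counted as higher or lower where they differed at least 2-fold and their counting interval left out no change. By this description 417 genes (13.6%) were higher and 119 (3.89%) lower in the knockout library, 17.5% in either direction. The median log2 ratio of all of them, taken as knockout over wild type after adding 1 to both sums, was 0.08. Scaling by the median of ratios moved every ratio by -0.14 and gave 331 higher and 176 lower genes. Thinning each barcode to 1000 UMIs, which left 15 wild-type and 51 knockout barcodes, gave 33 and 28.

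The selecting genes are described first. Alb, the most abundant plasma protein gene, had 3402 wild-type UMIs in 21 of 22 barcodes and 7352 knockout UMIs in 66 of 67, or 23752 and 23295 CPM. Ttr, the carrier of thyroid hormone, was at 11562 and 19595 CPM, and the fibrinogen chain gene Fgb at 1690 and 3118 CPM. These 3 values are descriptions of how the barcodes were chosen.

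Of 32 other secreted plasma proteins, 5 were higher in the knockout library, a share near the 13.6% of all genes. None was lower, against 3.89% of all genes, and the list median was 0.11. Abundant members lay on both sides of no change, and none of those above 1000 CPM in the wild type differed 2-fold. Apoc1, at the levels given above, had a log2 ratio of 0.40 (0.31 to 0.50). Hpx, which binds free haem, was at 4566 and 3175 CPM, a log2 ratio of -0.52 (-0.67 to -0.38), and Vtn, an adhesion protein of plasma, had -0.70 (-0.99 to -0.41). The 5 higher genes were Serpina1d, Serpina1e, Serpina3k, and the alpha-macroglobulin family members Pzp and Mug1. They encode protease inhibitors, as do list genes that were not 2-fold higher, such as Serpina1a and Serpina1b. Serpina1e had 16 wild-type UMIs in 7 of 22 barcodes and 601 knockout UMIs in 47 of 67, or 112 CPM (63.8 to 181) against 1904 CPM (1755 to 2063). Its log2 ratio was 4.01 (3.38 to 4.91), and 2.49 with a selecting share of 1%, while Serpina1a and Serpina1b had 0.45 and 0.67. Of B-cell-like barcodes, 0.423% and 4.67% had a Serpina1e UMI. Reads of these near-identical genes can be divided among them by the counting, so the value of each is uncertain.

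Acute-phase genes, made by hepatocytes in response to inflammatory cytokines, had no common direction: 4 of 14 were higher and 2 lower, against 13.6% and 3.89% of all genes, and the median was 0.14. Serum amyloid Saa1 had no wild-type UMI against 75 knockout UMIs, at least 11.3-fold higher against a limit of 3 counts for the wild-type sum. Those UMIs lay in 13 of 67 barcodes, and 61.3% of them in 1 barcode. After each barcode was thinned to 1000 UMIs, 0 of 15 wild-type and 5 of 51 knockout barcodes had a Saa1 UMI. Its close paralog Saa2 had 0 and 42 UMIs. Orm1, an acid glycoprotein, was at 468 and 1584 CPM, a log2 ratio of 1.74 (1.39 to 2.15). In the other direction, Apcs, the serum amyloid P component, was at 956 and 301 CPM, a log2 ratio of -1.66 (-2.06 to -1.28), and Lrg1 was at 454 and 174 CPM. Hp, which encodes haptoglobin, had -0.82 (-0.98 to -0.67).

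Hamp, the iron hormone hepcidin, was divided between barcodes rather than libraries. It summed to 3798 CPM over wild-type and 3666 CPM over knockout hepatocytes, a log2 ratio of -0.05 (-0.20 to 0.10). It had a UMI in 13 of 22 and 33 of 67 barcodes, against 1.8% and 4.2% of B-cell-like barcodes, and reached 17054 and 17204 CPM in single barcodes. Hamp2, its paralog, had 1 wild-type and 53 knockout UMIs in 13 barcodes. The complement and coagulation list had a median of 0.31, with 3 of 23 genes higher, a share near the 13.6% of all genes, and none lower.

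**Figure D2:**
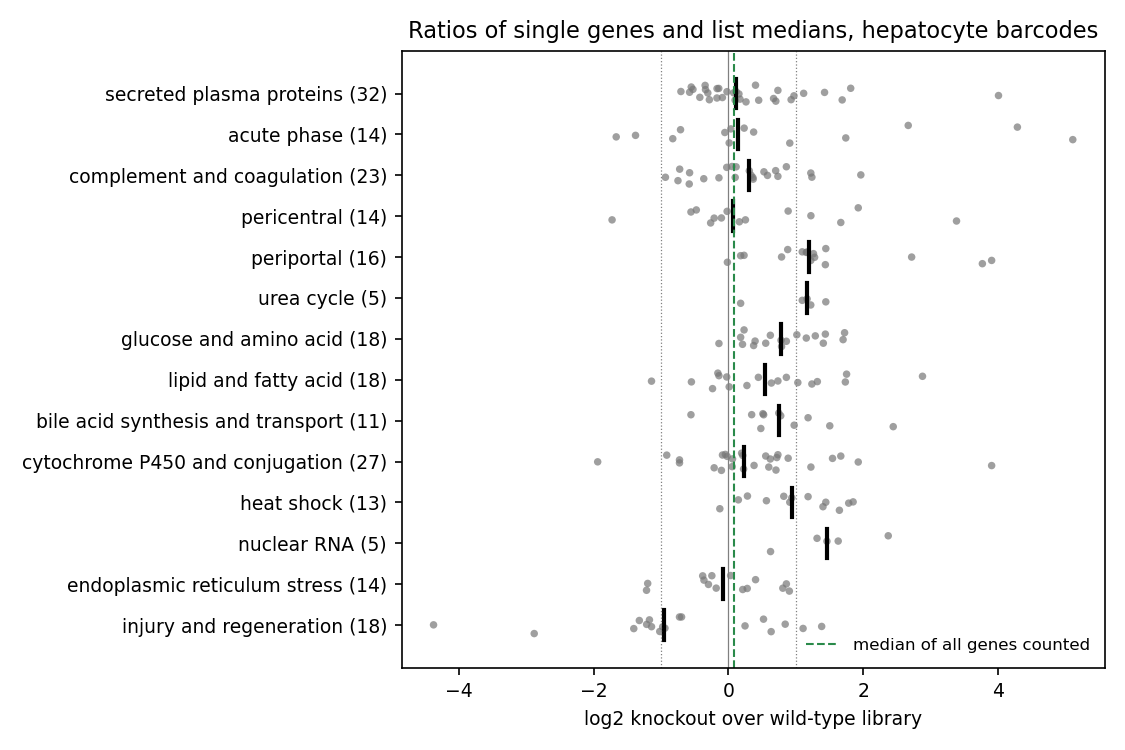
Each point is the log2 ratio of 1 gene, knockout over wild-type library, in the summed hepatocytes; black bars are list medians, the dashed line is the median of all 3061 genes (0.08), dotted lines mark 2-fold, and the number of genes is in parentheses. The periportal and nuclear RNA medians lie above 1 and that of the injury list at -0.96.

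Genes of the periportal zone were higher in the knockout hepatocytes as a list. Of 16 counted, 11 were at least 2-fold higher and none lower, with a median log2 ratio of 1.19, where 13.6% of all genes were higher. Urea cycle genes accounted for 4 of the 11. Ass1, which joins citrulline and aspartate, was at 489 and 1153 CPM, a log2 ratio of 1.22 (0.87 to 1.63), with a UMI in 15 of 22 and 52 of 67 barcodes and in 6.63% and 12.3% of B-cell-like ones. Cps1, the mitochondrial entry enzyme of the cycle, was at 133 and 311 CPM, and Arg1, which releases urea, at 119 and 339 CPM. Asl was the urea cycle gene counted that did not differ 2-fold, at 76.8 and 91.9 CPM.

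Periportal genes outside the urea cycle were among the 11 too. Hpd, a tyrosine-degrading enzyme, was at 244 and 678 CPM, and Pck1, of glucose synthesis, at 69.8 and 168 CPM. Cyp2f2, the periportal cytochrome P450, had 0 wild-type UMIs and 32 knockout UMIs, at least 4.84-fold higher, in 7 of 67 barcodes, and 20 of these UMIs came from 1 barcode. Uroc1, of histidine breakdown, had 0 and 29 UMIs in 16 barcodes. In both libraries the periportal sum was below the pericentral one: periportal genes made up 3219 CPM (2931 to 3526) for wild-type and 6318 CPM (6044 to 6602) for knockout barcodes.

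This difference depended on the selecting share. With at least 1% selecting transcripts the periportal median was 0.30, and with at least 10%, which left 3 wild-type barcodes with 12745 UMIs, it was -0.15. Heat-shock, nuclear and background transcripts given below also differed between the libraries, and their part in the periportal values was not tested.

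Pericentral genes had a median closer to no change. Of 14, 4 were higher and 1 lower, against 13.6% and 3.89% of all genes, with a median of 0.07. The median was 0.57 without the 5 deepest barcodes of each library and 0.33 over means of single-barcode CPM. Their sum was 9998 CPM (9487 to 10529) for wild-type and 11445 CPM (11075 to 11824) for knockout barcodes. Cyp2e1 was at 559 and 1042 CPM and had a UMI in 13 of 22 and 27 of 67 barcodes, against 0.4% and 1.9% of B-cell-like barcodes. Cyp1a2, another central enzyme, was at 510 and 507 CPM. Glul, the glutamine synthetase of the innermost central cells, had only 14 and 9 UMIs and was lower, at 97.7 and 28.5 CPM, below the 216 and 153 CPM of all other barcodes. The 4 higher genes were Cyp2c29, Cyp2c50, Cyp2a5 and Car3. Car3, a carbonic anhydrase, was at 62.8 CPM (28.7 to 119) for wild-type and 726 CPM (635 to 826) for knockout barcodes, a log2 ratio of 3.38, with a UMI in 3 of 22 and 38 of 67 barcodes. With a selecting share of 1% the Car3 ratio was 1.60.

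Both lists were detected together in most single hepatocytes. All 22 wild-type barcodes had UMIs of both lists, as did 63 of 67 knockout barcodes. Of B-cell-like barcodes 30.3% and 41.9% had UMIs of both as well, since the lists hold genes such as Ctsc and Glul that other cells express, so a UMI of each does not show that a cell has both programmes. Pericentral UMIs outnumbered periportal ones in 18 wild-type and 41 knockout barcodes, and the reverse held in 3 and 23. Across barcodes the shares of the lists had a Spearman correlation of 0.01 in the wild type (22 barcodes) and 0.37 in the knockout (67 barcodes). These barcodes share a library and differ in depth, so the values are descriptions. Both Cyp2e1 and Cyp2f2 were found in 2 knockout barcodes.

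**Figure D3:**
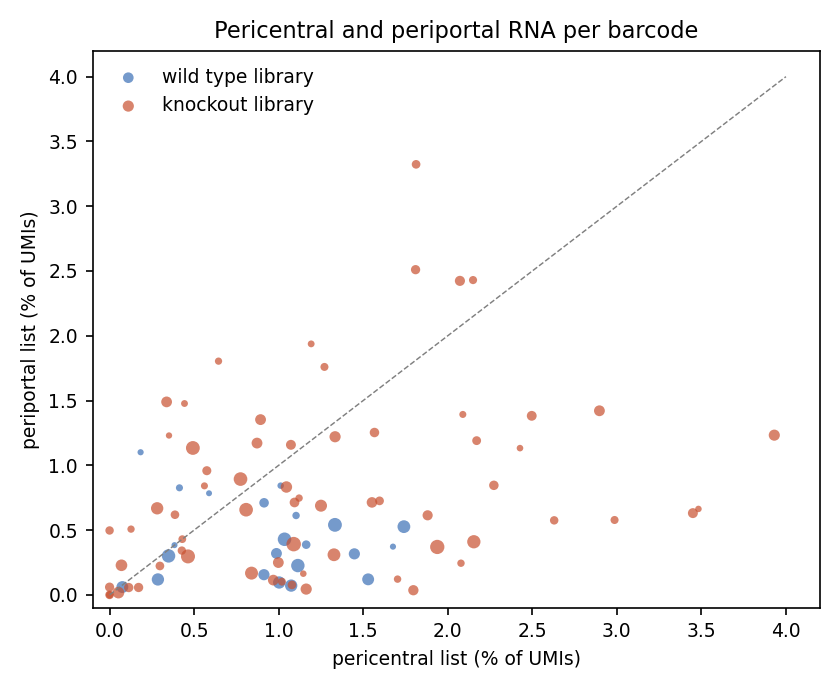
Each point is 1 hepatocyte barcode, with the percentage of its UMIs from pericentral and periportal list genes and a size that grows with its UMI total; the dashed line marks equal shares. Most barcodes lie below the line, 18 of 22 wild-type and 41 of 67 knockout, and the highest periportal level of a single barcode is 11009 CPM in the wild-type and 33233 CPM in the knockout library.

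Metabolic lists differed in how they stood to the 13.6% higher and 3.89% lower among all genes. For glucose and amino acid metabolism 7 of 18 were higher, none lower, and the median was 0.79, though 0.07 with a selecting share of 1%. Bhmt, which remethylates homocysteine, was at 873 and 2858 CPM, a log2 ratio of 1.70 (1.44 to 1.99). Tdo2, the first enzyme of tryptophan breakdown, was at 223 and 608 CPM, and Mat1a, the hepatocyte methionine adenosyltransferase, at 391 and 970 CPM. Fbp1, of glucose synthesis, had a log2 ratio of 0.21.

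Lipid genes were nearer to that background, with a median of 0.54, 4 of 18 higher and none lower. Fabp1, the fatty acid binding protein of hepatocytes, was at 3330 CPM (3038 to 3643) for wild-type and 11106 CPM (10741 to 11480) for knockout barcodes, a log2 ratio of 1.74 (1.60 to 1.88). Its UMIs lay in 19 of 22 and 61 of 67 barcodes, and in 3.2% and 13.8% of B-cell-like ones. Scd1, the stearoyl-CoA desaturase, was at 223 and 1692 CPM, a log2 ratio of 2.88 (2.41 to 3.48), and 0.74 (0.14 to 1.56) with a selecting share of 10%. Fasn, another gene of fatty acid synthesis, had 5 and 15 UMIs and a log2 ratio of 0.28 (-1.09 to 2.26).

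Drug metabolism and bile acid genes varied by member. Among 27 cytochrome P450 and conjugation genes 5 were higher and 1 lower, near the shares of all genes, and the median was 0.23. Gstp1 was the lower gene, at 552 and 143 CPM, a log2 ratio of -1.94 (-2.51 to -1.41), and it was also lower in all other barcodes, at 11.2 and 3.93 CPM. Among 11 bile acid genes 3 were higher, namely Baat, Abcb11 and Akr1d1, and none lower, against 13.6% and 3.89% of all genes. The bile acid median was 0.75. Cyp7a1, the rate-limiting enzyme of bile acid synthesis, had 9 and 36 UMIs and a ratio of 0.75 (-0.22 to 2.10). Hepatocyte transcription factors were thinly covered: of 6 counted, Cebpa alone was higher, with 8 and 49 UMIs, a share near the 13.6% of all genes.

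Major urinary proteins, secreted lipocalins that male hepatocytes make in quantity, included the gene with the largest ratio of the 15 most abundant ones. Mup20, at chr4:62050234-62054158 on the minus strand of GRCm38, had 192 UMIs in 14 of 22 wild-type barcodes and 3385 UMIs in 56 of 67 knockout barcodes. Its level was 1340 CPM (1158 to 1544) against 10726 CPM (10367 to 11093), a log2 ratio of 2.99 (2.79 to 3.22). Over single barcodes it ran from 0 through a median of 282 to 9642 CPM for wild-type and from 0 through 3724 to 43478 CPM for knockout barcodes, so the libraries overlapped. After thinning, 5 of 15 wild-type and 36 of 51 knockout barcodes had a UMI. Of the B-cell-like barcodes, which should lack Mup20, 0.423% of wild-type and 12.9% of knockout ones had a UMI. The hepatocyte ratio was 2.36 without the 5 deepest barcodes of each library, 2.01 over means of single-barcode CPM and 0.79 with a selecting share of 10%. In the knockout, 930 and 880 of the Mup20 UMIs came from 2 barcodes.

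The paralog Mup3 followed, with 16 and 323 UMIs and a log2 ratio of 3.11 (2.47 to 4.02); as for the Serpina1 genes, reads within the Mup family can be shared. Both libraries contained Y-linked transcripts, and Xist had 2 wild-type and 9 knockout UMIs over the barcodes within the gene and mitochondrial limits. Of 8 counted genes known for a sex bias in hepatocytes, 3 were higher (Mup3, Mup20 and the Y-linked Ddx3y) and 1 lower, Cyp2a4, with 25 and 21 UMIs. Among all genes 13.6% were higher and 3.89% lower.

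**Figure D4:**
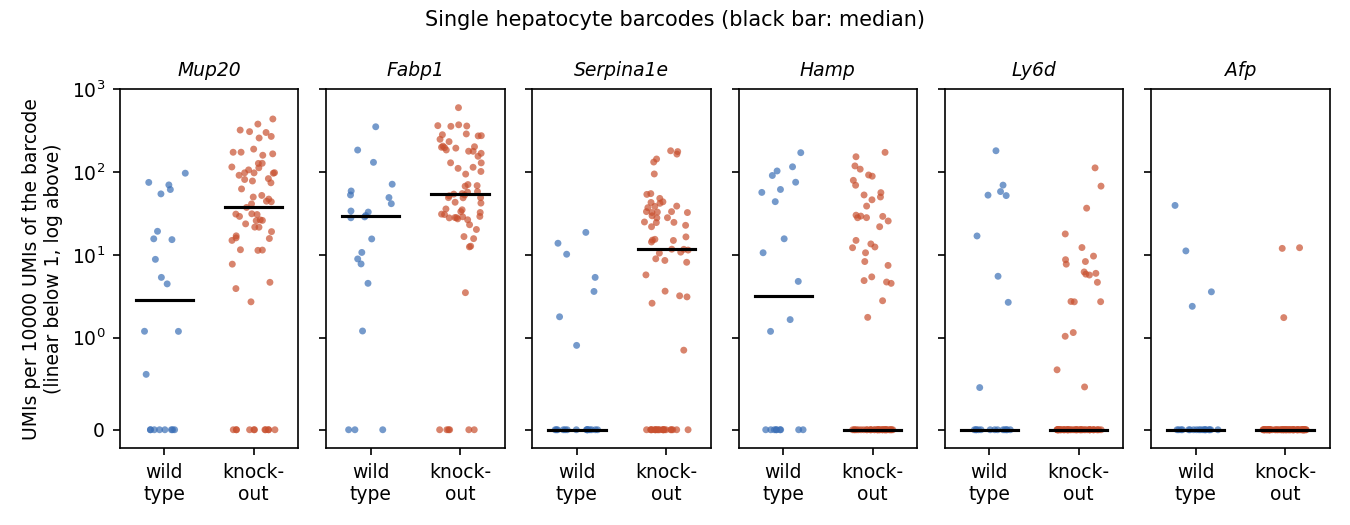
Each point is 1 hepatocyte barcode, with its UMIs of the named gene per 10000 of its own UMIs, on an axis that is linear below 1 and logarithmic above; black bars are medians. Mup20 and Serpina1e are detected in 56 and 47 of 67 knockout barcodes against 14 and 7 of 22 in the wild type, Hamp spans the same range in both libraries, and Afp is at 0 in all but 4 and 3 barcodes.

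Genes of injury and regeneration were lower in the knockout hepatocytes as a list. Of 18 counted, 8 were at least 2-fold lower and 1 higher, with a median of -0.96, where 3.89% of all genes were lower. The ratio was below 0 for 12 genes and above 0 for 6. Over means of single-barcode CPM the median was closer to no change, at -0.46. With a selecting share of 10% it was -1.56, and the medians of the genes' lower and upper limits were -2.50 and 0.07. Mesenchymal markers were also lower in the knockout hepatocytes, at the 300.2 and 124 CPM given above, and their part in the injury values was not tested. Afp, the fetal albumin relative on chr5:90490737-90508907 of GRCm38, had 46 wild-type and 4 knockout UMIs, or 321 CPM (235 to 428) against 12.7 CPM (3.45 to 32.4). Its log2 ratio was -4.37 (-6.60 to -3.21). These UMIs lay in 4 of 22 wild-type barcodes, with 33, 6, 5 and 2, so that 71.7% came from 1 barcode, and in 3 of 67 knockout barcodes. In all other barcodes Afp was at 2.27 and 2.36 CPM. Gpc3, a proteoglycan of fetal and regenerating liver, had 13 UMIs in 6 wild-type barcodes and none in the knockout, at least 9.55-fold lower. That total is below the 20 UMIs required for counting.

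Ly6d, a surface protein also made by B cells, had 363 UMIs in 9 of 22 wild-type barcodes and 108 UMIs in 21 of 67 knockout barcodes. The levels were 2534 CPM (2280 to 2809) and 342 CPM (281 to 413), a log2 ratio of -2.88 (-3.21 to -2.57). B-cell-like barcodes had 615 and 636 CPM, and 84.1% and 88.3% of them had a Ly6d UMI. The selection limits Cd79a, Cd79b and Ms4a1, so the 3 and 9 UMIs of B-cell markers in all hepatocytes were partly set by it, and the part of B-cell RNA in the Ly6d values was not tested. The wild-type Ly6d UMIs were concentrated, with 120, 88, 58 and 58 in 4 barcodes, and the highest knockout barcode had 50. Of the Afp barcodes, 3 of 4 wild-type and 3 of 3 knockout ones also had Ly6d, as did all 6 wild-type barcodes with Gpc3.

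The other lower genes of the list were Krt8, Igfbp1, Anxa2, Anxa5, S100a11 and Lgals1. Krt8, a keratin of simple epithelium, was at 782 and 387 CPM, a log2 ratio of -1.02 (-1.40 to -0.63). Krt18, another keratin of the list, was not among the lower genes. It had a UMI in 14 of 22 wild-type and 44 of 67 knockout barcodes, and after thinning in 4 of 15 and 22 of 51. Lgals1 was at 621 and 234 CPM, and the related Lgals3 had 0.25 (-0.67 to 1.41). Cdkn1a, the cell cycle inhibitor p21, was the higher gene, with 7 and 37 UMIs. Spp1, made by injured hepatocytes, cholangiocytes and macrophages, was at 1864 and 1153 CPM, a log2 ratio of -0.69 (-0.92 to -0.46), and 49.8% of the wild-type UMIs came from 1 barcode. The mean of single-barcode Spp1 levels had the opposite order, at 1792 CPM for wild-type and 2990 CPM for knockout barcodes, so no direction is given for it. In the knockout, 2 barcodes had 69 of 1297 and 51 of 765 UMIs from Spp1. They had no UMI of the pericentral or periportal lists, and plasma protein shares of 1.08% and 0.654%. Both were kept, and whether they are hepatocytes was not tested.

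Of 14 oxidative stress and glutathione genes counted, 11 had a log2 ratio above 0 and 3 below, with a median of 0.49. By the 2-fold rule 1 was higher and 2 were lower, against 13.6% and 3.89% of all genes. The lower genes were the glutathione transferases Gsta1 and Gsta4, at log2 ratios of -1.73 (-2.29 to -1.21) and -1.46 (-2.07 to -0.86). The Gsta1 ratio was -0.11 (-0.89 to 0.86) without the 5 deepest barcodes of each library and -0.15 (-0.87 to 0.69) with a selecting share of 5%. Fn1, the fibronectin gene, was at 517 and 174 CPM, but 1 wild-type barcode held 42 of its UMIs and the next highest held 9. Mfap2 itself had no UMI in hepatocytes of either library. It had 257 and 4 UMIs over the wild-type and knockout barcodes within the gene and mitochondrial limits. Endoplasmic reticulum stress genes had a median of -0.07, with none of 14 higher and 2 lower, against 13.6% and 3.89% of all genes.

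Some heat-shock and most nuclear transcripts were higher in the knockout hepatocytes. Of 13 heat-shock genes 5 were higher and none lower, against 13.6% and 3.89% of all genes, with a median of 0.94. Hspa1b, an inducible chaperone, was at 182 and 646 CPM, against 1542 and 3002 CPM in all other barcodes, so both groups of cells had the higher level in the knockout library. Of 5 nuclear RNAs 4 were higher, with a median of 1.46. That median was 0.95 with a selecting share of 1%, 0.91 without the 5 deepest barcodes and 0.87 over means of single-barcode CPM. With a share of 10% it was 0.51, and the medians of the genes' limits were -0.73 and 2.25. Malat1 was at 1124 and 3495 CPM in hepatocytes and 12673 and 16052 CPM in the other barcodes. Immediate-early genes, which rise during tissue dissociation, had 1 of 16 higher, below the 13.6% of all genes, and a median of 0.51. The immediate-early median had no stable direction: it was -0.78 without the 5 deepest barcodes and -0.18 over means of single-barcode CPM. Without the 5 deepest barcodes the medians of the genes' limits were -1.39 and -0.09.

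By the rule for naming genes, the 10 highest and 10 lowest ratios at a mean of at least 100 CPM were listed. The high end held Saa1, Zc3h12c, Serpina1e, Car3, Mup3, Mup20, Scd1, Thrsp, Ghr and Wfdc21. Thrsp, a lipogenic regulator, had 5 and 73 UMIs, and Ghr, the growth hormone receptor, 4 and 60. Zc3h12c, an RNase, had 1 and 73 UMIs, but 70 of the 73 came from the deepest knockout barcode, and the ratio of 4.07 became -1.08 without the 5 deepest barcodes of each library.

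The low end held Afp, Ly6d, Tuba1b, Zfas1, Stmn1, Nupr1, Gstp1, Gm2000, Pik3r1 and Gsta1. Stmn1, of microtubule turnover in dividing cells, had 30 and 15 UMIs, and Nupr1, a stress-induced nuclear protein, 24 and 13. Pik3r1 had 40 and 23 UMIs, and its ratio of -1.91 became 0.62 after the barcodes with the highest doublet scores were left out. Gm2000 was lower in all other barcodes too, at 143 and 82.6 CPM. Stmn1, at a log2 ratio of -2.09, had -0.57 (-1.91 to 1.22) and Zfas1, at -2.14, had -1.30 (-2.97 to 0.55) without the 5 deepest barcodes. At the high end, Wfdc21 went from 2.09 to 0.10 over means of single-barcode CPM. In the library where they were lower, 6 of the 10 low genes and 3 of the 10 high genes were below the level of all other barcodes.

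**Figure D5:**
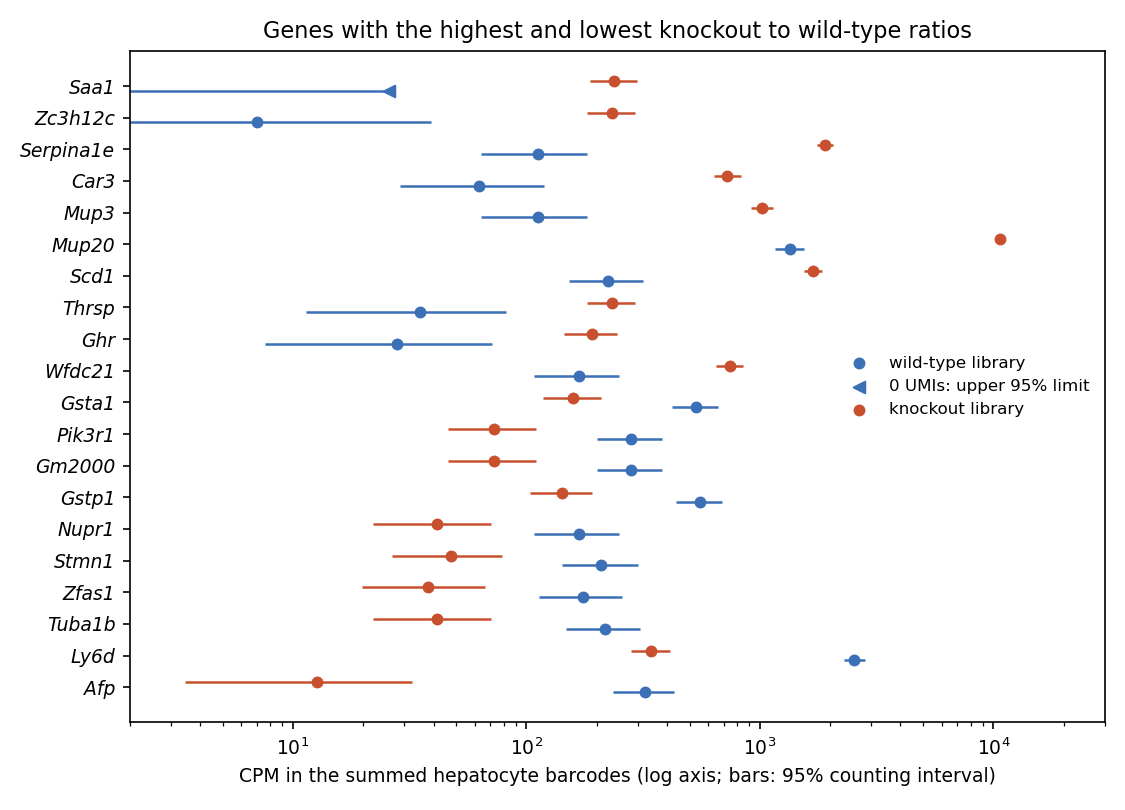
CPM of the 10 genes with the highest and the 10 with the lowest ratio, in the summed hepatocytes of each library on a log axis, with 95% Poisson counting intervals; bars that reach the left edge continue below it and the triangle is the upper limit for 0 UMIs. The genes were chosen for their extreme ratios, so the distance between the libraries describes that choice; Mup20 is the most abundant at 10726 CPM in the knockout library.

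Hepatocyte transcripts in barcodes that are not hepatocytes gave a second view of each preparation that did not use the chosen barcodes. The 7 selecting genes supplied 0.0141% of UMIs in 709 wild-type and 0.0349% in 1157 knockout B-cell-like barcodes. Mup20 was at 1.93 and 25.9 CPM there, from 7 and 190 UMIs, a log2 ratio of 3.56 (2.67 to 5.08), and Alb was at 44.8 and 118 CPM, a ratio of 1.39 (1.15 to 1.65). The ratios of other selecting genes there were spread widely, at 2.75 for Apoa2, 3.18 for Apoc3 and 4.09 (2.54 to 10.4) for Fgb, which had 1 wild-type UMI. The knockout B-cell-like barcodes held more RNA of these genes.

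Serpina1e and Fabp1 had the same direction in B-cell-like barcodes, with log2 ratios of 2.98 (1.76 to 5.69) and 2.19 (1.66 to 2.87). Hpx and Apoa1 did not keep it: Hpx had 2.38 (1.66 to 3.42) there and -0.52 in hepatocytes, and Apoa1 had 1.63 (1.06 to 2.35) there and -0.25. Afp had 2 and 7 UMIs in B-cell-like barcodes, a ratio of 0.39 (-1.61 to 4.09). The part of such background RNA in the values of the hepatocyte barcodes was not tested.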

How the data were processed

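Raw counts of UMIs per gene and barcode were deposited by the authors for 2 Chromium 3′ v3 libraries. Per the file headers they came from Cell Ranger 7.0.1, whereas the submitters' processing notes name Cell Ranger 3.1.0, Seurat and mm10, so the version is uncertain. The hepatocyte barcodes and all gene lists were chosen with earlier results of these data known. UMIs of the selected barcodes were summed per library and given as CPM, with exact Poisson intervals; shares have Clopper-Pearson intervals and ratios exact conditional intervals at 95%, all covering counting error only. No test between genotypes was possible with 1 library each. A gene was counted from 20 UMIs in the 2 sums together; those named were the 10 highest and 10 lowest ratios with a mean of at least 100 CPM and a level at or above that of all other barcodes in the library where they were higher, and the 15 most abundant, without selecting, mitochondrial, ribosomal protein and haemoglobin genes. B-cell-like barcodes had at least 5 UMIs of Cd79a, Cd79b and Ms4a1 and passed the other marker limits. Doublets were kept; Scrublet in scanpy 1.11.5 served as an alternative. Interval code was tested on simulated data. Positions are from GENCODE M21 on GRCm38. Alternatives covered the selecting share, filters, doublets, depth and scaling. Values of a few list genes are not reported here.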

Additional observations from a re-analysis of the deposited data

Results flagged for a closer look

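Some barcodes with at least 2% selecting transcripts were not counted as hepatocytes. That 2% limit itself puts their share of these transcripts above that of B-cell-like barcodes, so the excess is not a finding. Markers of Kupffer, endothelial, T or B cells left out 2 wild-type and 15 knockout barcodes, with medians of 105610 and 34080 UMIs, deeper than any wild-type hepatocyte in the first case. In the knockout, 10 of these exceeded the C1q limit, 5 the endothelial limit, 7 the Cd3 limit and 3 the B-cell limit, some of them several. Scrublet scores would have removed 5 of the 15. The mitochondrial limit left out 2 wild-type and 2 knockout barcodes, with 22.6% to 46.3% and about 20.7% mitochondrial UMIs.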

How the results depend on the processing

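No paired analysis was possible because each genotype is 1 library, and no replicate could be left out. The excess of hepatocyte barcodes, a log2 ratio of 1.44, was 0.60 with a selecting share of at least 1% and 2.34 with 10%. The 1% share also gave medians of 0.48 for plasma proteins, 0.30 for periportal and 0.065 for glucose and amino acid genes, and 0.29 for the periportal sum. The 5% share gave 169 higher and 74 lower genes and a pericentral sum ratio of 0.060. The 10% share, with 3 wild-type barcodes, gave 41 and 54 genes, an injury median of -1.56, a periportal sum ratio of 0.27, and reversed the periportal median (-0.15), the pericentral sum (-0.13), Stmn1 (0.012) and Zc3h12c (-1.40). Zc3h12c was also reversed at 5% (-0.21), without the 5 deepest barcodes of each library (-1.08) and after thinning (-0.18), and Pik3r1 at 5% (0.46) and without high doublet scores (0.62). Requiring 500 genes per barcode, with mitochondrial UMIs of 10% or less, gave a periportal sum ratio of 0.80. Without the 5 deepest barcodes, 228 genes were higher and the sum ratios were 0.49 (pericentral) and 1.79 (periportal). Thinning gave 33 higher and 28 lower genes. Means of single-barcode CPM gave 271 lower genes, an injury median of -0.46 and a pericentral sum ratio of 0.43, and scaling by the median of ratios gave 0.054 for the latter. A minimum of 50 UMIs gave 168 higher and 55 lower genes, and a minimum of 1 UMI 203 lower genes. Stricter shares, thinning and higher minimums leave fewer UMIs or genes; the cause was otherwise not tested. Of 583 log2 ratios and medians, 40 changed sign: 31 where the reported interval included 0 and 9 where it did not, the latter being those given above as reversed. For list medians that interval runs between the medians of the genes' limits. Leaving out barcodes under 1000 UMIs was chosen after seeing the data. At these depths, differences in genes with few UMIs were not detectable.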
